A study of Mus with 3 samples.

Results

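The 40 genes described here encode collagens and other proteins of the extracellular matrix, together with a few enzymes that finish or make matrix molecules. They were chosen by name, as a list of symbols, and all 40 were found among the 27998 genes of the deposited matrices. By role they form 7 sets. These are 5 fibrillar collagen chains, 8 genes of the basement membrane and its associated proteins, 4 type VI collagen chains, 4 other collagens, 8 genes of the elastic fibre, 6 adhesive or matricellular proteins, and 5 genes of proteoglycans and hyaluronan. Their levels are given for fibroblasts, mesothelial, epithelial and endothelial cells of the mouse lung.

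The extracellular matrix is the protein and sugar scaffold outside cells. Fibrillar collagens give it tensile strength, elastin and its microfibrils let the lung recoil, type VI collagen forms beaded filaments near cells and basement membranes, and laminins with type IV collagen form the sheet on which epithelium and endothelium sit. Fibroblasts make most of the interstitial matrix of the lung. Alveolar fibroblasts lie in the walls of the air sacs, adventitial fibroblasts lie in the sheaths around airways and large vessels, and mesothelial cells line the lung surface. Deposition of matrix around airways is a known feature of allergic airway disease.

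The study profiled dissociated whole lung by single-cell RNA sequencing (10x Genomics 3′ chemistry, which counts molecules by unique molecular identifiers, UMIs) to ask how DJ-1, the product of Park7, acts in allergic airway inflammation. WT PBS was wild type mice challenged with saline buffer. WT OVA was wild type mice challenged with ovalbumin, the allergen. DJ-1 KO OVA was mice labelled DJ-1 KO and challenged with ovalbumin. All were females of 6 to 12 weeks, and each group was 1 library pooled from 3 mice, with no DJ-1 KO PBS group. The title of the WT PBS sample also names an OVA challenge, while its treatment label and the end of its title say PBS; the treatment label was followed. The labels used here do not say how the DJ-1 KO allele was made, which cells lack it, or the strain.

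With 1 library a group there is no measure of the spread between mice or libraries, so no test was possible and no p-value is given. Intervals are exact 95% intervals of counting error only, and a ratio compares 2 libraries, not 2 conditions. WT OVA serves both comparisons, so its own deviations enter them in opposite directions. Levels are CPM, the UMIs of a gene scaled to the total UMIs summed over the cells of a class. Since 1 UMI is counted per molecule from its 3′ end, CPM does not scale with gene length, though capture can differ between genes. A gene is called higher or lower past a threshold where the ratio of CPM is past 1.5-fold and the gene has at least 20 UMIs over both libraries.

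Barcodes numbered 4556 in WT PBS, 6406 in WT OVA and 4666 in DJ-1 KO OVA; values given below as 3 in a row follow this order of the libraries. WT PBS and DJ-1 KO OVA shared 372 barcodes, against 6 shared by WT PBS and WT OVA and 5 by WT OVA and DJ-1 KO OVA; the cell of fewer UMIs of each of the 372 pairs was left out. After filters 3840, 5892 and 4432 cells remained, with median UMIs per cell of 4079.5, 2050 and 1652.5. The doublet caller marked 1.80%, 3.28% and 0.200% of cells, and at that last share it did not work in DJ-1 KO OVA. Park7, the targeted gene, had in fibroblasts 122 CPM in WT PBS, 77.0 CPM in WT OVA and 23.7 CPM in DJ-1 KO OVA, so the library labelled DJ-1 KO OVA was lowest but not at 0. How far these facts enter the values below was not tested.

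Cell names come from lists of marker genes that hold none of the 40 genes, and clusters were built without the 40 genes or a wider list of matrix genes; each name means cells like that type. Fibroblasts numbered 312 in WT PBS, 399 in WT OVA and 250 in DJ-1 KO OVA. They were divided into alveolar (98, 137 and 107 cells), adventitial (121, 147 and 100) and other fibroblasts, whose alveolar and adventitial markers were too close to separate (93, 115 and 43). The summed level of 13 alveolar fibroblast markers in alveolar fibroblasts was 10170, 8508 and 6928 CPM in the 3 libraries, against 4345, 3575 and 2930 CPM for the 13 adventitial markers. In adventitial fibroblasts the adventitial markers summed to 11430, 9338 and 7090 CPM and the alveolar markers to 3110, 3118 and 2535 CPM. Both identity lists thus stood lower in each OVA library than in WT PBS. There were 33, 104 and 69 mesothelial cells, 286, 746 and 251 alveolar type 2 cells, and 22, 54 and 36 endothelial cells. B cells (624, 922 and 328), which make little matrix, serve as the comparison level for each gene; free RNA, miscounted cells and their own expression can all enter it.

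Fibroblasts spent by far the most of their RNA on the 40 genes. The genes took 4.16% of all fibroblast UMIs in WT PBS, 4.06% in WT OVA and 4.79% in DJ-1 KO OVA. Adventitial fibroblasts stood above alveolar fibroblasts in each library, with 4.62%, 4.58% and 5.27% against 3.72%, 3.74% and 4.31%. Of the other classes described here, mesothelial cells followed with 1.73%, 1.39% and 1.32%, and their highest share was in WT PBS. Endothelial cells were at 0.274%, 0.274% and 0.403%, and alveolar type 2 cells at 0.0774%, 0.0814% and 0.0914%. B cells had 0.0115%, 0.0174% and 0.0208%. Club cells, the secretory cells of the airway, had 0.00534%, 0.0103% and 0.00905%, below B cells of the same library throughout. Across the alternative settings tried, the share of all fibroblasts ran from 3.93% to 4.19% in WT PBS and from 3.90% to 4.07% in WT OVA. In DJ-1 KO OVA it ran from 4.48% to 4.84%, so that library kept the highest value. Intervals of counting error were far narrower than these ranges. By class, DJ-1 KO OVA ran from 4.64% to 5.52% in adventitial and from 3.74% to 4.71% in alveolar fibroblasts, so these classes overlapped. WT PBS reached 4.79% and 3.84% in the same classes and WT OVA 4.645% and 3.77%, so the libraries overlapped too.

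**Figure D1:**
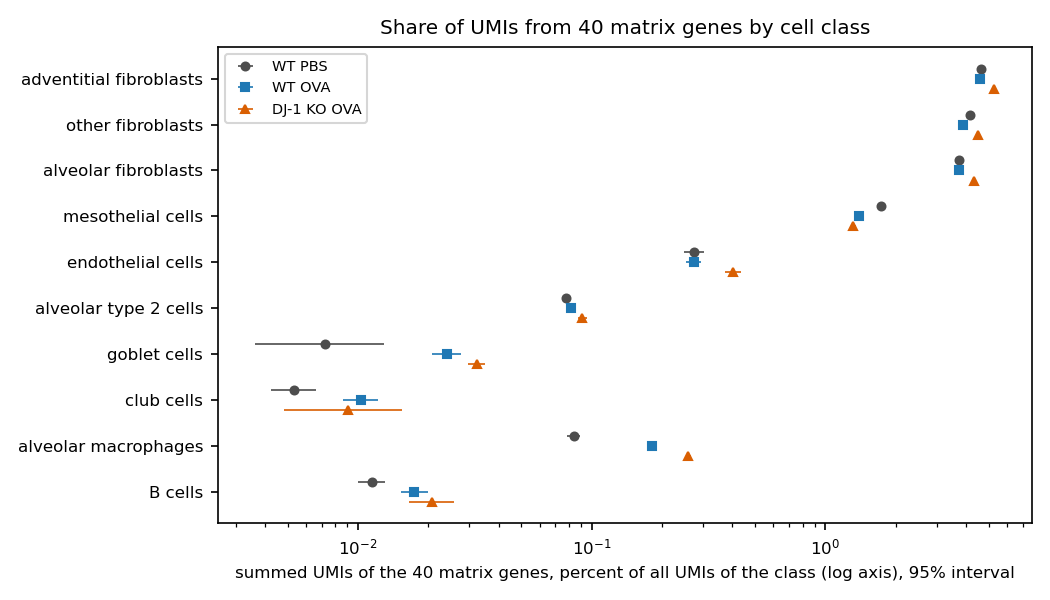
Share of UMIs taken by the 40 genes (percent, log axis) in each cell class and library, with exact 95% intervals of counting error; 1 library a group. Fibroblast classes sit near 4 to 5%, mesothelial cells near 1.3 to 1.7%, and alveolar type 2 cells below 0.1% but above B cells.

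In fibroblasts, 35 of the 40 genes stood above the B cell level in all 3 libraries. By class the counts were 32 in alveolar fibroblasts, 36 in adventitial fibroblasts, 28 in mesothelial cells, 14 in endothelial cells, 7 in alveolar type 2 cells, 6 in neuroendocrine cells, 1 in goblet cells and 0 in club cells. Too few UMIs for any ratio came from Col4a3, a type IV collagen chain of specialised basement membranes (10, 5 and 4 UMIs over all fibroblasts), and Tnc, tenascin C (4, 6 and 11 UMIs over all fibroblasts).

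Over all fibroblasts, fibrillar collagens were the largest role by summed level, and WT OVA was near WT PBS. Their 5 chains summed to 11130 CPM in WT PBS, 10250 CPM in WT OVA and 13600 CPM in DJ-1 KO OVA over all fibroblasts. Col1a2 had 3722, 3465 and 4792 CPM, Col3a1 had 3488, 3317 and 4361 CPM, and Col1a1 had 3176, 2699 and 3423 CPM. Col1a1 and Col1a2 encode the chains of type I collagen and Col3a1 that of type III collagen. The type V chains, which set the width of collagen fibrils, were about an order of magnitude lower, with Col5a2 at 408, 470.3 and 615 CPM and Col5a1 at 339, 297 and 411 CPM. All 5 chains had DJ-1 KO OVA over WT OVA ratios above 1 over all fibroblasts, with log2 ratios from 0.34 to 0.47, and none was past 1.5-fold. By sub-cluster, described below, these ratios were less even. They were above 1 in 7 of 8 sub-clusters for Col1a2 and Col5a1 and in 5 of 8 for Col1a1, Col3a1 and Col5a2. By class the 5 chains summed to 9372, 8805 and 10040 CPM in alveolar and 12850, 13140 and 17120 CPM in adventitial fibroblasts. In other fibroblasts they summed to 11520, 8534 and 11710 CPM. Elastic fibre genes summed higher in alveolar fibroblasts of WT OVA (9241 CPM) and DJ-1 KO OVA (10250 CPM). Proteoglycans and hyaluronan genes were level with them in WT PBS adventitial fibroblasts (12860 CPM) and above them in WT OVA other fibroblasts (8760 CPM).

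The elastic fibre genes summed to 9424, 8908 and 9605 CPM. Eln, the elastin core, was highest at 3704, 3800 and 4222 CPM. Mfap4, a microfibril-associated protein, had 1554, 1428 and 1407 CPM, Fbln1, a fibulin found along elastic fibres and basement membranes, 1177, 1051 and 1010 CPM, Loxl1, a crosslinking enzyme of elastin, 855, 803 and 929 CPM, and Fbn1, the fibrillin of the microfibril, 759, 715.5 and 906 CPM. All 5 of these stayed within 1.5-fold in both comparisons. Proteoglycans and hyaluronan genes summed to 8737, 8615 and 7695 CPM. Bgn, the small proteoglycan biglycan, had 3575, 4532 and 4032 CPM.

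Adhesive and matricellular genes summed to 7148, 7208 and 8871 CPM, led by Sparc (3310, 2559 and 3029 CPM), a collagen-binding glycoprotein, and its relative Sparcl1 (2626, 2954 and 3235 CPM). Spon1, which encodes F-spondin, had 363, 348 and 374 CPM. Basement membrane genes kept close to one level in sum, at 2183, 2156 and 2235 CPM. Npnt, the integrin ligand nephronectin, was first among them at 588.5, 725 and 618 CPM, followed by Col4a1 at 438, 463 and 596 CPM. Col4a2, which pairs with it in type IV collagen, had 187, 197 and 217 CPM, the laminin chain Lamc1 439, 353 and 339 CPM, and Col15a1 189.8, 167 and 227 CPM. Other collagens summed to 923, 885 and 1012 CPM, most of it Col14a1, which binds collagen fibrils (729.8, 698 and 847 CPM). Col13a1, a membrane-bound collagen, had 152, 149 and 139.6 CPM and Col12a1 22.5, 26.9 and 23.7 CPM.

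**Figure D2:**
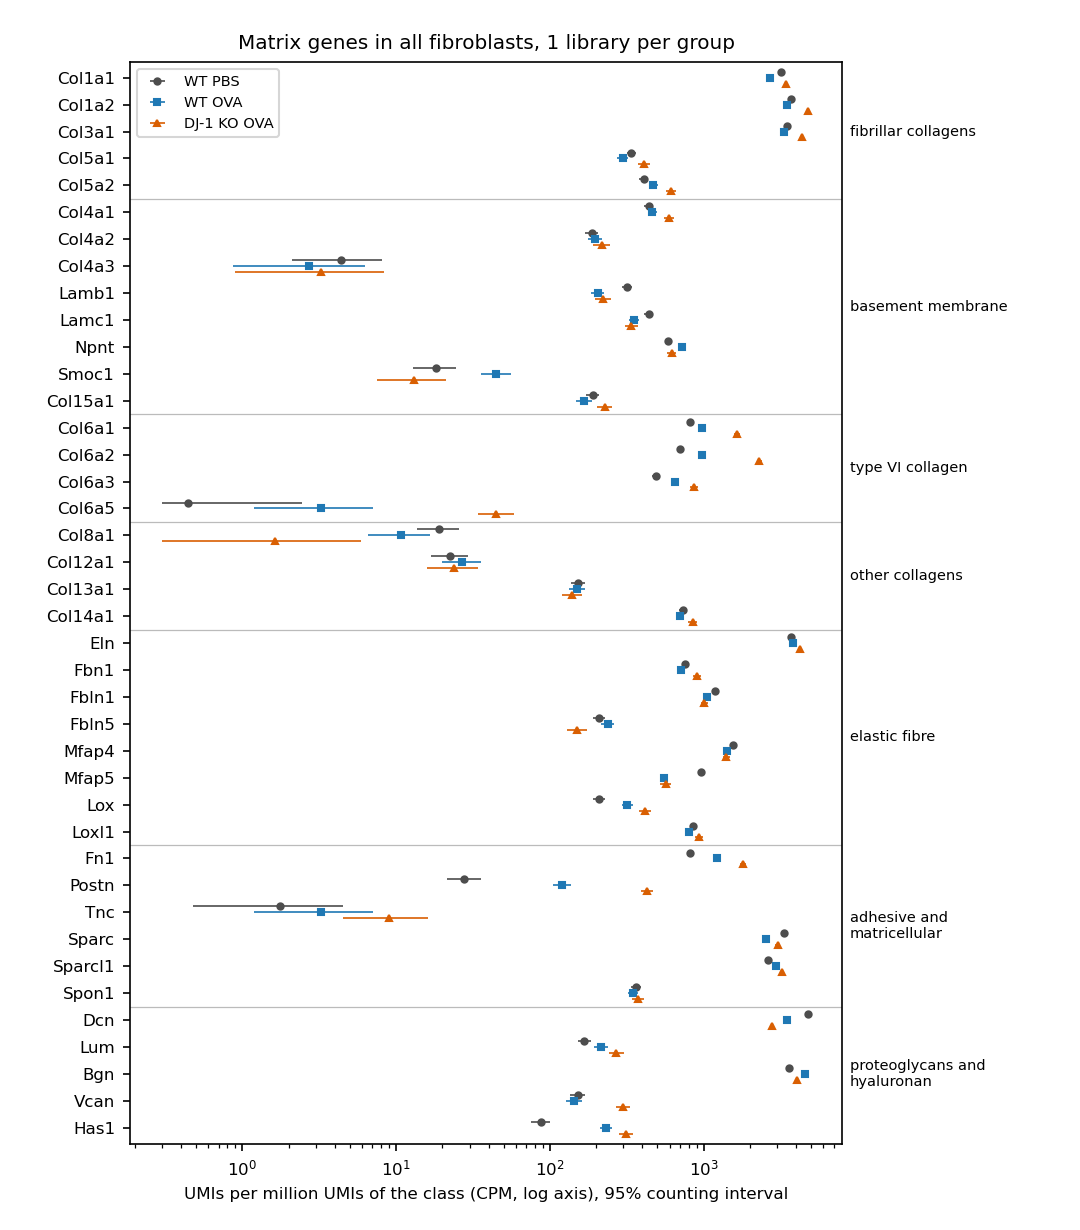
CPM of each of the 40 genes over all fibroblasts (log axis), ordered by role, for the 3 libraries; lines are exact 95% intervals of counting error, and lower ends under 0.3 CPM are drawn to 0.3. Col6a1, Col6a2, Col6a3, Has1, Lox and Fn1 are among the genes that step up from WT PBS through WT OVA to DJ-1 KO OVA, as do Postn and Eln. Dcn, from 4755 to 2779 CPM, is among those that step down, as do Mfap4 and Fbln1.

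Several of these genes lie side by side in the genome (build GRCm38.p6, RefSeq). Col6a2 (chromosome 10, 76595756 to 76623630) and Col6a1 (chromosome 10, 76708792 to 76726044) are 85161 bases apart, with 2 genes between them. Dcn (chromosome 10, 97479500 to 97518163) and Lum (97565501 to 97572703) are 47337 bases apart. Col3a1 (chromosome 1, 45311538 to 45349706) and Col5a2 (45374331 to 45503282) are 24624 bases apart. Col4a1 (chromosome 8, 11198423 to 11312889) and Col4a2 (11312805 to 11449287) overlap by 85 bases at their starts. Neighbours did not always follow one another: DJ-1 KO OVA fibroblasts had less Dcn and more Lum than WT OVA fibroblasts, as given below.

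Between WT OVA and WT PBS, the levels of a small set of the genes differed in fibroblasts, while the median of the 40 did not stand apart. Of 37 genes with enough UMIs, 4 were past 1.5-fold higher in WT OVA (Smoc1, Lox, Postn and Has1), where 7.94% of all 10012 genes tested were. Another 3 were past 1.5-fold lower (Lamb1, Col8a1 and Mfap5), where 10.2% of all genes were. All 7 also had intervals that left out 1, which 4.38% of all genes had on the higher side and 5.54% on the lower. The median log2 ratio was -0.03 for the 40 genes and -0.02 for all genes, and the shares of calls were near those of other genes.

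By class, alveolar fibroblasts of WT OVA had 1 of 33 genes past 1.5-fold above WT PBS (Has1), where 9.32% of all genes were, and 2 below (Lamb1 and Mfap5), where 12.6% were. With intervals that left out 1 the same 3 stood, against 4.07% and 5.42% of all genes. Adventitial fibroblasts had 6 of 37 above (Smoc1, Col6a2, Lox, Fn1, Postn and Has1), where 11.6% of all genes were, and 3 below (Lamb1, Col8a1 and Mfap5), where 13.7% were. All 9 had intervals that left out 1, against 4.76% and 4.72% of all genes. Median log2 ratios were -0.03 in alveolar and 0.04 in adventitial fibroblasts, against -0.04 and -0.02 for all genes.

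Has1, a hyaluronan synthase, had 87.2 CPM in WT PBS, 232 CPM in WT OVA and 313 CPM in DJ-1 KO OVA. WT OVA stood 2.66-fold above WT PBS (interval 2.25 to 3.17), and this ratio was past 1.5-fold under each of 17 alternative settings. A Has1 UMI was seen in 17.9%, 28.6% and 26.8% of fibroblasts in the 3 libraries. In alveolar fibroblasts Has1 had 28, 158 and 153 UMIs, or 29.8, 191 and 317 CPM, and 1 WT PBS cell held 50% of the WT PBS UMIs. The alveolar ratio of WT OVA over WT PBS was 6.39 (4.25 to 9.92), a log2 ratio of 2.67 that was 1.22 with cells thinned to 1000 UMIs and 3.74 with all cells of shared barcodes kept. Adventitial fibroblasts had 132, 364 and 372 CPM of Has1, a ratio of 2.75 (2.19 to 3.48) for WT OVA over WT PBS.

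Lox, the enzyme that crosslinks collagen and elastin, had 208, 318 and 414 CPM over all fibroblasts. Its WT OVA over WT PBS ratio was 1.53 (1.35 to 1.73), near the threshold, and the log2 ratio of 0.61 was 0.57, inside 1.5-fold, without sub-cluster 7, described below. In adventitial fibroblasts Lox had 120 CPM in WT PBS, 269 in WT OVA and 322 in DJ-1 KO OVA, with WT OVA 2.23-fold above WT PBS (1.74 to 2.88). In alveolar fibroblasts it had 271, 399 and 499 CPM, inside 1.5-fold for each comparison.

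Mfap5, a microfibril glycoprotein of the elastic fibre, stood below its WT PBS level in both other libraries. It had 958, 554 and 565 CPM over all fibroblasts, and the WT OVA over WT PBS ratio was 0.58 (0.54 to 0.62), past 1.5-fold under each of 17 alternatives. Alveolar fibroblasts had 744, 447.5 and 360.3 CPM and adventitial fibroblasts 1360, 832 and 767 CPM. Lamb1, a laminin chain, had 318.5, 204 and 221 CPM over all fibroblasts, a WT OVA over WT PBS ratio of 0.64 (0.56 to 0.73). That ratio lost the 1.5-fold call when each cell was thinned to 1000 UMIs (log2 ratio -0.33) or weighted alike (-0.40). Lamb1 in alveolar fibroblasts was 410 CPM in WT PBS, 235 in WT OVA and 289.9 in DJ-1 KO OVA.

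Smoc1, a basement membrane protein of the SPARC family, rested on 41, 83 and 16 UMIs over all fibroblasts, or 18.1, 44.7 and 13.1 CPM. WT OVA was the high library in both comparisons, 2.48-fold above WT PBS (1.68 to 3.69) and with DJ-1 KO OVA at 0.29 of it (0.16 to 0.50). In adventitial fibroblasts Smoc1 had 23, 36 and 11 UMIs, and 1 WT PBS cell held 52.2% of its WT PBS UMIs. Col8a1, a short-chain collagen, had 18.9, 10.8 and 1.63 CPM over all fibroblasts; 1 cell held 60.5% of the WT PBS UMIs, and without the cell of most UMIs in each library the log2 ratio of WT OVA over WT PBS was 0.20 in place of -0.81. Its lower call in WT OVA thus rests on that cell.

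Postn encodes periostin, a matricellular protein known as a product of interleukin 13 signalling in airways. It had 63 UMIs in WT PBS, 222 in WT OVA and 524 in DJ-1 KO OVA fibroblasts, or 27.7, 120 and 428 CPM. Nearly all came from adventitial fibroblasts (63, 217 and 522 UMIs), and alveolar fibroblasts had 0, 2 and 0 UMIs. In adventitial fibroblasts, WT OVA was 4.58-fold above WT PBS (3.45 to 6.16) and DJ-1 KO OVA 2.68-fold above WT OVA (2.28 to 3.15). A Postn UMI was found in 10.7%, 10.9% and 27.0% of adventitial fibroblasts in the 3 libraries, against 0%, 0% and 0.305% of B cells. The WT OVA and WT PBS shares were thus near each other while their CPM were not. One WT OVA cell held 46.5% of the WT OVA UMIs, and without the cell of most UMIs in each library the adventitial ratios were 3.21 and 3.95.

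Between DJ-1 KO OVA and WT OVA, type VI collagen had the largest median log2 ratio of the 7 roles over all fibroblasts, 1.00, against 0.39 for fibrillar collagens, the next. Of 38 genes with enough UMIs over all fibroblasts, 5 were past 1.5-fold higher in DJ-1 KO OVA (Col6a1, Col6a2, Col6a5, Postn and Vcan), where 14.0% of all 9452 genes tested were. Those lower past 1.5-fold were 3 (Smoc1, Col8a1 and Fbln5), where 8.97% of all genes were. All 8 had intervals that left out 1, as did 8.04% of all genes on the higher and 4.60% on the lower side. The shares of the list were near the background, so the count itself says nothing about the 40 genes. The median log2 ratio was 0.26 for the 40 genes and 0.07 for all genes.

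The type VI chains summed to 2017 CPM in WT PBS, 2600 CPM in WT OVA and 4855 CPM in DJ-1 KO OVA fibroblasts, from 4.85% and 6.40% to 10.1% of the UMIs of the 40 genes. Col6a2, a chain that every type VI molecule holds, had 706, 978 and 2292 CPM. Its DJ-1 KO OVA over WT OVA ratio was 2.34 (2.21 to 2.49), past 1.5-fold under each of 17 alternatives, with log2 ratios from 1.13 to 1.29. WT OVA also stood above WT PBS, 1.39-fold (1.30 to 1.48). A Col6a2 UMI was seen in 81.7%, 87.0% and 90.0% of fibroblasts, so the gene was widespread in each library.

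Col6a1, the other constant chain, had 820.1, 971 and 1651 CPM over all fibroblasts. DJ-1 KO OVA was 1.70-fold above WT OVA (1.60 to 1.81), and this too was past 1.5-fold under each of 17 alternatives. Col6a3, which completes the usual molecule, had 491, 647 and 866.5 CPM, with WT OVA 1.32-fold above WT PBS and DJ-1 KO OVA 1.34-fold above WT OVA, both inside 1.5-fold. Col6a5, a chain that can stand in for it, had 1, 6 and 55 UMIs, a DJ-1 KO OVA over WT OVA ratio of 13.9 (5.99 to 39.5). The 3 chains of the usual molecule were thus ordered alike, WT PBS below WT OVA below DJ-1 KO OVA, in alveolar and adventitial fibroblasts as in all fibroblasts.

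In alveolar fibroblasts, 7 of 33 genes stood past 1.5-fold above WT OVA in DJ-1 KO OVA, where 15.5% of all genes were, and 6 of them (Col6a1, Col6a2, Col6a3, Fn1, Vcan and Has1, all but Col15a1) had intervals above 1, where 6.99% of all genes did. Fbln5, a fibulin needed to assemble elastic fibres, was the 1 gene past 1.5-fold lower, where 11.7% of all genes were, and its interval was below 1, as for 4.72% of all genes. Col6a2 had 702, 876 and 2079 CPM there, a DJ-1 KO OVA over WT OVA ratio of 2.37 (2.15 to 2.62). Col6a1 had 843, 903.5 and 1418 CPM, a ratio of 1.57 (1.41 to 1.74), and Col6a3 had 475, 528 and 849 CPM, a ratio of 1.61 (1.40 to 1.84). Scaling by the median ratio of all genes lowered alveolar log2 ratios of this comparison by 0.10 and left 3 of the 7 past 1.5-fold.

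In adventitial fibroblasts, 9 of 37 genes were past 1.5-fold above WT OVA in DJ-1 KO OVA (Npnt, Col6a1, Col6a2, Col6a3, Col6a5, Col13a1, Postn, Spon1 and Vcan), where 19.9% of all genes were, and 1, Smoc1, was lower, where 10.2% were. Intervals that left out 1 held for all 10, and for 10.1% of all genes on the higher and 4.90% on the lower side. Col6a2 had 629, 946.7 and 2024 CPM, with DJ-1 KO OVA 2.14-fold above WT OVA (1.94 to 2.36) and WT OVA 1.505-fold above WT PBS (1.34 to 1.69), which was past 1.5-fold in 8 of 17 alternatives. Col6a1 had 752, 981 and 1605 CPM, a DJ-1 KO OVA over WT OVA ratio of 1.64 (1.48 to 1.81). Col6a3 had 331, 421 and 665 CPM, a ratio of 1.58 (1.35 to 1.85). Col6a3 was past 1.5-fold in 11 of 17 alternatives in adventitial fibroblasts (lowest log2 ratio 0.25). In alveolar fibroblasts Col6a3 was past it in 12 of 17 (lowest 0.29). Col6a1 was past it in 14 adventitial and 15 alveolar alternatives, with lowest log2 ratios of 0.33 and 0.55. Without sub-cluster 7, described below, the adventitial ratios of Col6a1 and Col6a3 were inside 1.5-fold. The adventitial Col6a2 ratio stayed past 1.5-fold under each of 17 alternatives (lowest log2 ratio 0.67). For Col6a5 the UMIs were 0, 0 and 28, or 48.5 CPM in DJ-1 KO OVA, at least 10.4-fold above a floor of 3 UMIs in WT OVA.

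Vcan, the large proteoglycan versican that binds hyaluronan, had 151.5, 144 and 300.5 CPM over all fibroblasts, a DJ-1 KO OVA over WT OVA ratio of 2.09 (1.78 to 2.46). WT OVA did not stand above WT PBS (ratio 0.95). When each cell was thinned to 1000 UMIs the log2 ratio was 0.53, inside 1.5-fold. Alveolar fibroblasts showed the wider gap in Vcan, with 95.9, 82.0 and 244 CPM and a ratio of 2.98 (2.19 to 4.08). Adventitial fibroblasts had 196, 196 and 309.9 CPM and a ratio of 1.58 (1.25 to 2.0), past 1.5-fold in 11 of 17 alternatives.

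Fn1, which encodes fibronectin, stood higher from library to library, each step just inside 1.5-fold over all fibroblasts, at 819, 1225 and 1796 CPM. In alveolar fibroblasts it had 919, 1212 and 1893 CPM, and DJ-1 KO OVA was 1.56-fold above WT OVA (1.43 to 1.71). In adventitial fibroblasts it had 913, 1755 and 2059 CPM, and WT OVA was 1.92-fold above WT PBS (1.75 to 2.11), but 1 WT OVA cell held 29.0% of the WT OVA UMIs and the ratio was 1.46 without it. Macrophages also make fibronectin, and the summed level of alveolar macrophage markers in adventitial fibroblasts was 93.5, 185.0 and 299.5 CPM. In alveolar fibroblasts it was 41.6, 117 and 261 CPM. Its part in the Fn1 levels was not tested.

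Dcn, which encodes decorin, a small proteoglycan that binds collagen fibrils, stepped the other way. It had 4755, 3492 and 2779 CPM over all fibroblasts, ratios of 0.73 and 0.80, with a UMI in 78.8%, 79.4% and 63.6% of cells. In adventitial fibroblasts, where it was the first of the 40 genes in WT PBS, Dcn had 9321, 7003 and 4749 CPM and a DJ-1 KO OVA over WT OVA ratio of 0.68 (0.65 to 0.71). This adventitial ratio rests on sub-cluster 7, described below. Without that sub-cluster the adventitial order of the OVA libraries was reversed. Adventitial Dcn was then 11.4-fold above the alveolar level in DJ-1 KO OVA and 6.45-fold in WT OVA. By sub-cluster, the DJ-1 KO OVA over WT OVA ratio of Dcn was above 1 in 2 of 8 (0.52 to 1.23). Lum, the related proteoglycan lumican, had 168, 215.5 and 270.3 CPM over all fibroblasts. Fbln5 had 209.7, 238 and 151 CPM over all fibroblasts, a DJ-1 KO OVA over WT OVA ratio of 0.64 (0.53 to 0.76) that was past 1.5-fold under 14 of 17 alternatives. Alveolar fibroblasts had 229, 262 and 149 CPM of Fbln5, a ratio of 0.57 (0.43 to 0.75).

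**Figure D3:**
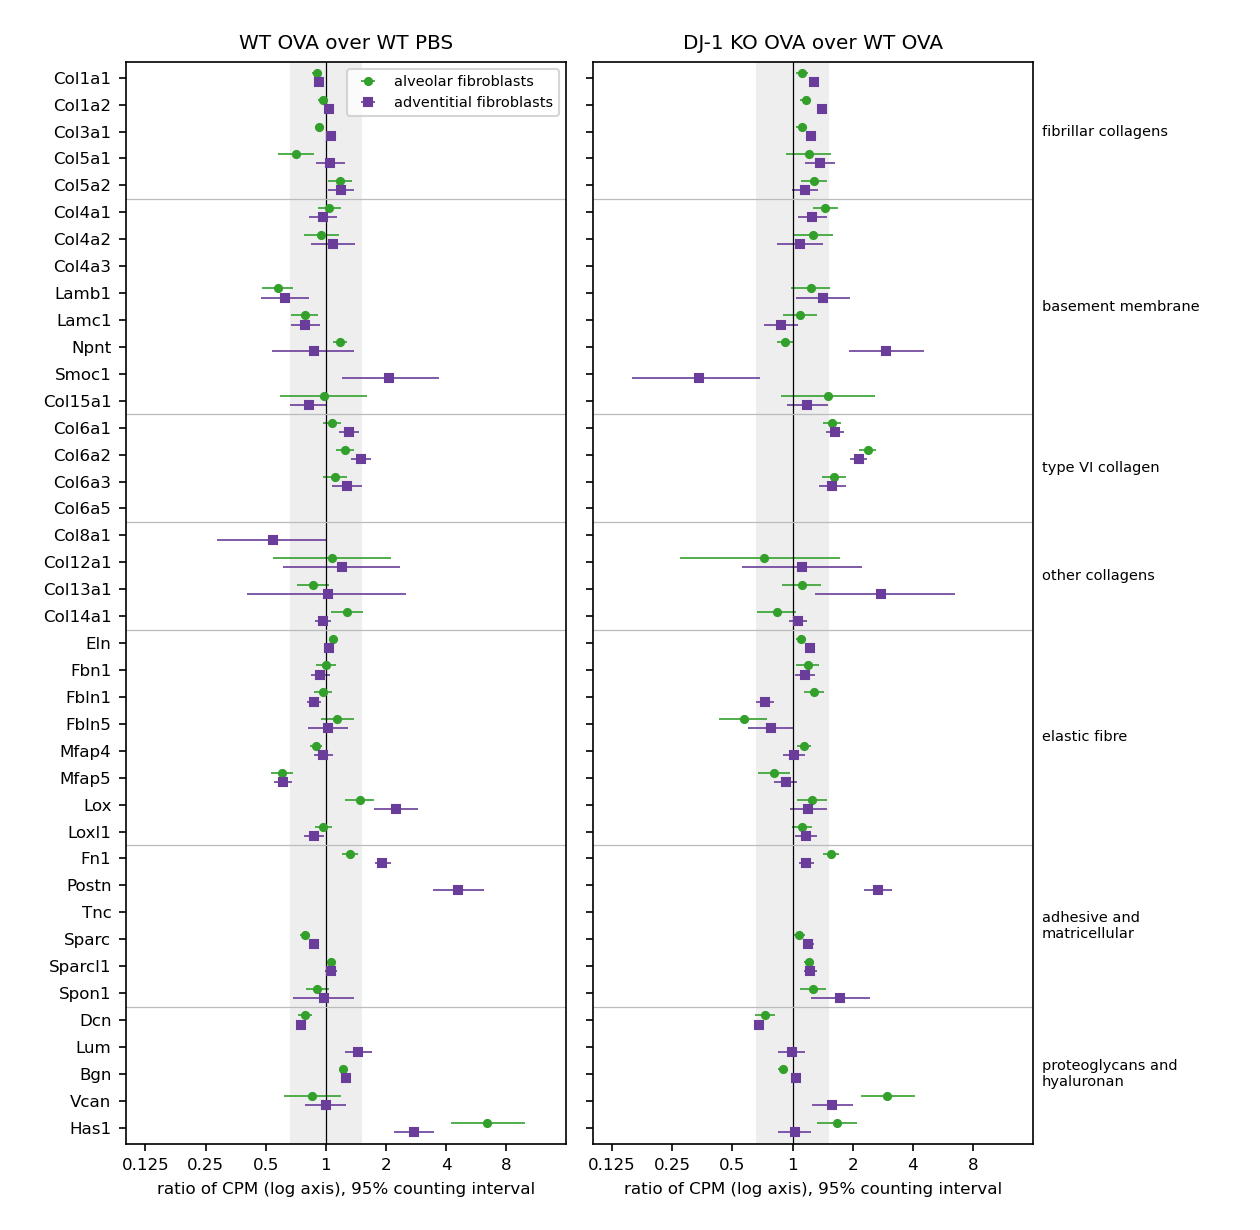
Ratios of CPM (log axis) for WT OVA over WT PBS and DJ-1 KO OVA over WT OVA in alveolar and adventitial fibroblasts, with exact 95% intervals of counting error; the grey band is within 1.5-fold and genes with too few UMIs are not drawn. Col6a1, Col6a2 and Col6a3 lie right of the band in DJ-1 KO OVA over WT OVA in both classes. The adventitial values include sub-cluster 7, without which Col6a1 and Col6a3 were inside 1.5-fold. Mfap5 lies left of the band in WT OVA over WT PBS in both classes.

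Fibroblast sub-clusters, built without the 40 genes, show how far each difference was spread. Adventitial fibroblasts held sub-clusters 0, 5, 7 and 8, alveolar fibroblasts 1, 2 and 6, and other fibroblasts 3 and 4. Sub-cluster 7 had 1, 11 and 55 cells, 82.1% of them from DJ-1 KO OVA, so it may be that library and not a type. It was led by Postn, Ccl11, an eosinophil-attracting chemokine, and Aldh1a3. Its leading genes against all other cells also held Col1a1, Col1a2, Col3a1, Col6a2 and Col14a1 of the 40 genes. Against other mesenchymal cells they held cell cycle genes, among them Top2a, Uhrf1 and Mcm5. Sub-cluster 6 had 5, 38 and 35 cells and was led by Timp1, Serpina3n, Saa3 and Il6, genes of the acute phase and of inflammation. Sub-cluster 8 was nearly all wild type, with 33, 31 and 1 cells.

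Col6a2 lay above WT OVA in DJ-1 KO OVA in each sub-cluster compared. It was higher in DJ-1 KO OVA in 8 of 8 sub-clusters with at least 10 cells of both, with ratios from 1.29 to 3.204, and in 5 it was past 1.5-fold with an interval above 1. The widest gap was in sub-cluster 3, at 1317 CPM in WT OVA and 4220 CPM in DJ-1 KO OVA, followed by sub-cluster 6, at 1026 and 2624 CPM, and sub-cluster 2, at 827 and 2032 CPM. Col6a1 was above 1 in 7 of 8 sub-clusters, with ratios from 0.997 to 2.26. Col6a3 was less even, above 1 in 6 of 8, with ratios from 0.46 to 1.86. It was past 1.5-fold with an interval that left out 1 on the higher side in 3 and on the lower in 1. Within sub-cluster 7, Col6a2 had 1730 CPM in WT OVA and 2283 CPM in DJ-1 KO OVA. WT OVA cells also stood above WT PBS cells for Col6a2 in 7 of 7 sub-clusters, from 1.14-fold to 2.07-fold. For Col6a1 they did so in 5 of 7 (0.93 to 1.55) and for Col6a3 in 4 of 7 (0.85 to 2.19).

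Vcan was past 1.5-fold higher in DJ-1 KO OVA, with an interval above 1, in 4 of 7 sub-clusters and Fn1 in 4 of 8. Vcan in sub-cluster 6 was 103 CPM in WT OVA and 380.4 CPM in DJ-1 KO OVA. Fn1 in sub-cluster 1 was 1391 and 3310 CPM, and in sub-cluster 0 717.5 and 1927 CPM. Has1 was uneven, past 1.5-fold higher in 4 and lower in 2 of 8 sub-clusters. Within alveolar sub-clusters, Has1 had 5.45 CPM (WT PBS) and 78.4 CPM (WT OVA) in sub-cluster 1, 22.2 and 158.5 CPM in sub-cluster 2, and in sub-cluster 6, which held only 5 WT PBS cells, 373 CPM in WT OVA and 651 CPM in DJ-1 KO OVA. In sub-cluster 0 Has1 had 173, 543 and 135 CPM in the 3 libraries, and in sub-cluster 5 179, 506.5 and 1045 CPM. Against WT PBS, Has1 in WT OVA was higher past 1.5-fold in 4 of 7 sub-clusters, and Mfap5 was below 1 in 7 of 7 (0.43 to 0.83).

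Postn sat in few cells. In sub-cluster 7 Postn had 104 CPM in WT OVA and 946 CPM in DJ-1 KO OVA, and in sub-cluster 0 it had 15, 1 and 53 UMIs, or 68.2, 5.28 and 896 CPM. In sub-cluster 5, led by Ptx3, Ackr3 and Pi16, the order was another one, with 161.5 CPM in WT PBS, 1257 CPM in WT OVA and 769 CPM in DJ-1 KO OVA. Without sub-cluster 7 the log2 ratio of DJ-1 KO OVA over WT OVA for Postn over all fibroblasts was 0.31 in place of 1.84, inside 1.5-fold. In adventitial fibroblasts the Postn log2 ratio was past 1.5-fold under each of 17 alternatives (lowest 0.795). These include the one without sub-cluster 7, which left 45 adventitial cells of DJ-1 KO OVA. The higher adventitial levels of Npnt (57.3, 49.7 and 145 CPM), Col13a1 (15.2, 15.5 and 43.3 CPM) and Spon1 (92.4, 90.2 and 156 CPM) in DJ-1 KO OVA turned to lower ones in 4, 5 and 5 alternatives, among them the one without sub-cluster 7, where their log2 ratios were -0.56, -0.71 and -2.42.

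**Figure D4:**
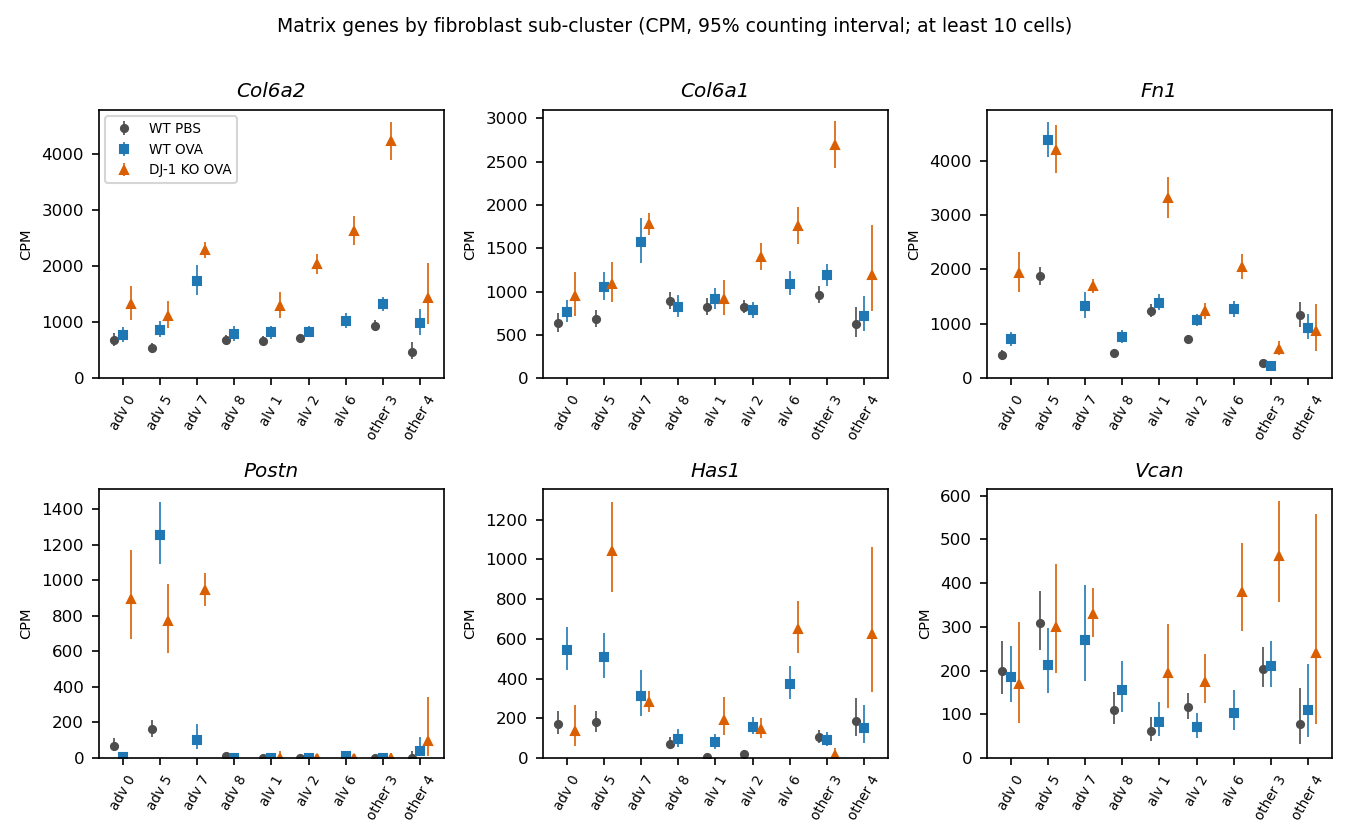
CPM of Col6a2, Col6a1, Fn1, Postn, Has1 and Vcan (linear axes from 0) by fibroblast sub-cluster and library, for sub-clusters with at least 10 cells of a library; lines are exact 95% intervals of counting error. The DJ-1 KO OVA point for Col6a2 lies above the WT OVA point in all 8 sub-clusters that hold both, while Postn and Has1 change order from one sub-cluster to the next.

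Alveolar and adventitial fibroblasts differed in the make-up of their matrix gene RNA. Of 35 genes with enough UMIs, 12 were past 1.5-fold the same way in all 3 libraries. Past 1.5-fold higher in alveolar fibroblasts in each library, with intervals that left out 1, were Npnt, Col13a1, Spon1, Mfap4, Lamb1 and Sparcl1; of all 6290 genes tested, 4.93% were. Past 1.5-fold higher in adventitial fibroblasts were Dcn, Lum, Col14a1, Col15a1, Mfap5 and Postn, as were 3.39% of all genes. The classes were defined by other genes, so these ratios describe cells chosen on their markers, and they compare cells of the same libraries.

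Npnt was 20.9-fold higher in alveolar than adventitial fibroblasts in WT PBS, 28.4-fold in WT OVA and 8.93-fold in DJ-1 KO OVA. Col13a1 was 19.1-fold, 16.1-fold and 6.41-fold higher, and Spon1 6.03-fold, 5.61-fold and 4.12-fold. On the adventitial side, Dcn was 6.14-fold, 5.87-fold and 5.46-fold higher than in alveolar fibroblasts, Col14a1 5.51-fold, 4.20-fold and 5.36-fold, and Lum 88.3-fold, 90.7-fold and 18.6-fold. The gaps in Npnt, Col13a1, Spon1 and Lum were smallest in DJ-1 KO OVA; without sub-cluster 7 this order ended for Npnt, Col13a1 and Spon1, whose DJ-1 KO OVA ratios were 38.8, 41.5 and 48.0, resting on 5, 1 and 2 adventitial UMIs. For Lum the DJ-1 KO OVA gap without it was 56.3-fold, and for Dcn 11.4-fold in place of 5.46-fold. Col6a2 lay near equality in each library, with alveolar over adventitial ratios of 1.12, 0.93 and 1.03; without sub-cluster 7 the last was 1.62 (1.39 to 1.90), past 1.5-fold.

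For Has1 the adventitial excess was widest in WT PBS: its alveolar over adventitial ratio was 0.23 in WT PBS, 0.52 in WT OVA and 0.85 in DJ-1 KO OVA. Fbln1 had ratios of 0.51, 0.56 and 0.98. Without sub-cluster 7 the DJ-1 KO OVA ratios were 0.50 for Has1, near that of WT OVA, and 0.70 for Fbln1. Col1a1 kept an adventitial excess, at 0.67, 0.65 and 0.57, and at 0.67, 0.70 and 0.78 without sub-cluster 7. By mean level over the libraries, the first 5 genes of alveolar fibroblasts were Bgn (3847, 4703 and 4197 CPM), Eln (3603, 3931 and 4332 CPM), Sparcl1 (3232, 3440 and 4135 CPM), Col3a1 (3254, 3023 and 3352 CPM) and Col1a2 (3021, 2918 and 3398 CPM). In adventitial fibroblasts Dcn was followed by Col1a2 (4278, 4449 and 6228 CPM), Col3a1 (4117, 4382 and 5413 CPM), Col1a1 (3637, 3381 and 4327 CPM) and Eln (3283, 3398 and 4138 CPM). These adventitial levels of DJ-1 KO OVA include sub-cluster 7.

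**Figure D5:**
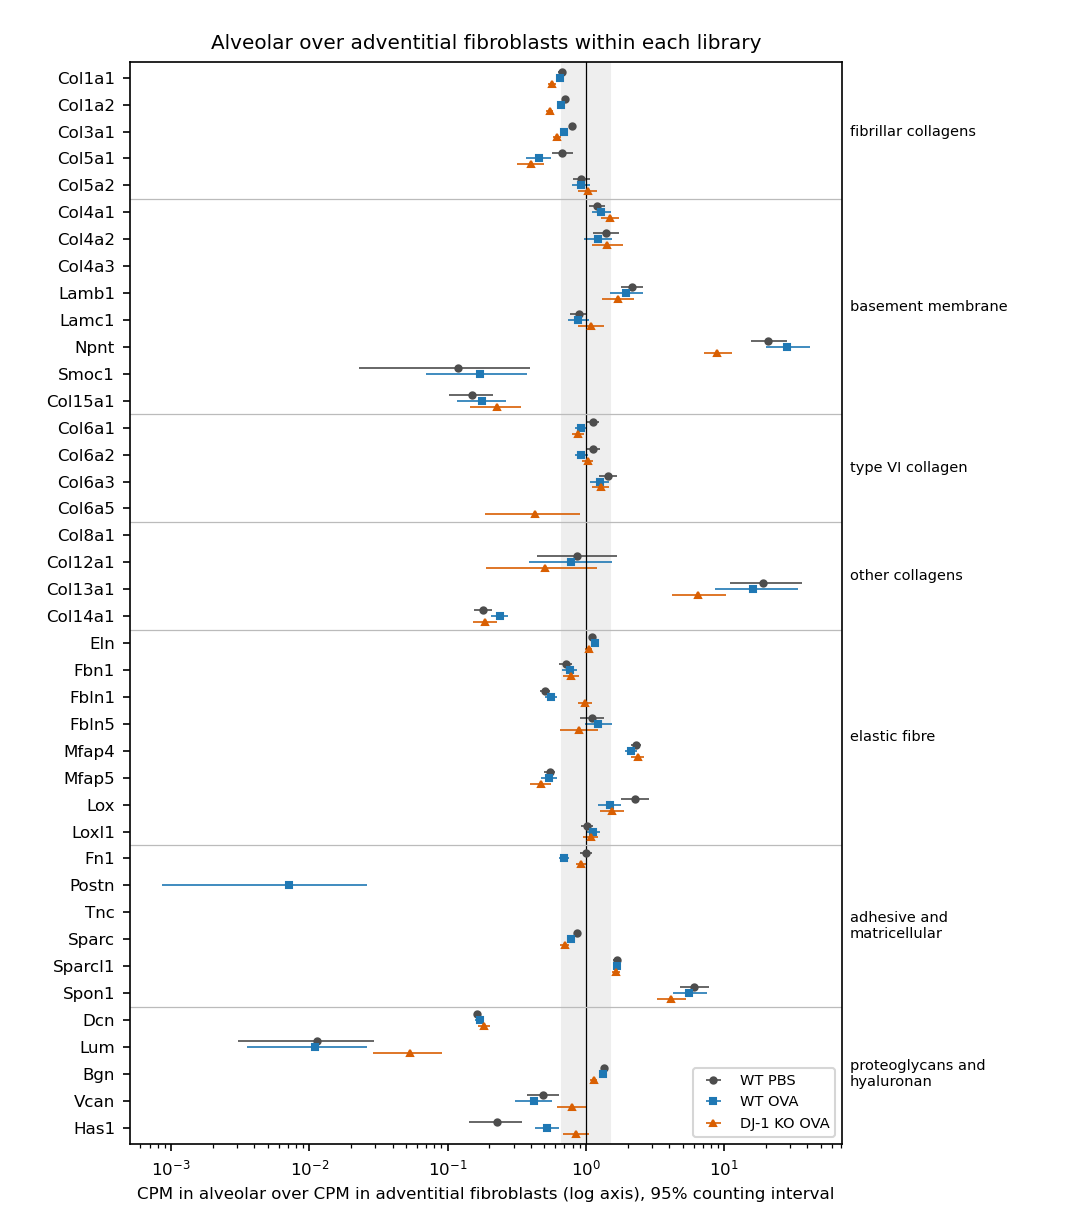
Ratio of CPM (log axis), alveolar over adventitial fibroblasts, for each gene with enough UMIs in the 3 libraries, with exact 95% intervals of counting error; the grey band is within 1.5-fold. Npnt, Col13a1 and Spon1 lie far right and Dcn, Lum and Col14a1 far left in every library, and the DJ-1 KO OVA values of Npnt and Col13a1 include sub-cluster 7.

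The matrix gene RNA of mesothelial cells was rich in Dcn. Dcn was their first gene at 6331 CPM in WT PBS, 3942 CPM in WT OVA and 3501 CPM in DJ-1 KO OVA, and proteoglycans and hyaluronan genes took 41.9%, 38.3% and 39.5% of their UMIs from the 40 genes. Col3a1 had 1894, 1181 and 1001 CPM, Sparc 1678, 1227 and 1179 CPM, Col1a2 1245, 852 and 742 CPM, and Bgn 722, 972 and 1083 CPM. Postn had 0, 0 and 1 UMIs, and Col8a1, Col13a1, Smoc1 and Tnc had 0 UMIs in all 3 libraries. WT PBS held only 33 mesothelial cells, so its values are given without calls.

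Between DJ-1 KO OVA and WT OVA mesothelial cells, 2 of 31 genes were past 1.5-fold higher (Fn1 and Has1), where 10.6% of all genes were and 4.74% also had intervals above 1, as both did, and 6 were lower (Col1a1, Lamb1, Col6a5, Col12a1, Eln and Mfap5), where 15.8% were. Of these 6, Col1a1, Col6a5, Eln and Mfap5 had intervals below 1, where 7.25% of all genes did. Col1a1 had 1082, 611 and 396 CPM in the 3 libraries, a DJ-1 KO OVA over WT OVA ratio of 0.65 (0.55 to 0.76). Eln had 505.5, 848 and 521 CPM, highest in WT OVA, a ratio of 0.61 (0.54 to 0.70). Mfap5 had 309, 188 and 83.3 CPM and Col6a5 8, 60 and 21 UMIs. For Col6a5 the DJ-1 KO OVA level was thus below the WT OVA level in mesothelial cells and above it in fibroblasts; the difference between the classes was not tested.

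Has1 in mesothelial cells was ordered as in alveolar fibroblasts, with 126, 375 and 604 CPM. Its DJ-1 KO OVA over WT OVA ratio was 1.61 (1.38 to 1.89), and 1.48 without the cell of most UMIs in each library. Fn1 had 243, 230 and 378 CPM there, and 1 cell held 53.0% of the WT OVA UMIs. Col6a2 had 329, 348.5 and 508 CPM, with DJ-1 KO OVA 1.46-fold above WT OVA (1.23 to 1.73), inside 1.5-fold. Mesothelial markers summed to 8825, 8904 and 7556 CPM in these cells. Sums for markers of other cells differed more: club cell markers summed to 4029, 1517 and 21420 CPM and alveolar macrophage markers to 230, 173 and 1679 CPM. Their part in these values was not tested.

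Alveolar type 2 cells, the epithelial cells that make surfactant, expressed mainly basement membrane genes. Their own markers summed to 232800, 182900 and 157200 CPM. The 7 genes above the B cell level in all 3 libraries included Col4a1 at 173 CPM in WT PBS, 170.4 in WT OVA and 200.1 in DJ-1 KO OVA, Col4a2 at 111, 124 and 101.5 CPM, and Npnt at 79.9, 108 and 147 CPM. Col4a3 had 16.1, 19.7 and 19.0 CPM, against 0 UMIs in B cells. Sparc had 189, 139 and 126 CPM and Col6a1 108, 144.5 and 171 CPM. Lamc1 had 36.1, 29.0 and 26.1 CPM, and a Lamc1 UMI was in 33.6%, 17.8% and 18.3% of type 2 cells. B cells had 44.2, 37.5 and 42.7 CPM of Lamc1 while neutrophils had 2.59, 0 and 0 CPM, so B cells give no background level for this gene.

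In WT OVA against WT PBS type 2 cells, 3 of 13 genes were past 1.5-fold higher (Col6a2, Fn1 and Bgn), where 9.16% of all genes were, and 1 was lower (Fbln5), where 6.39% were. All 4 had intervals that left out 1, as did 6.58% of all genes on the higher and 3.57% on the lower side. Fn1 and Bgn stood below B cells of the same library throughout, and Fbln5 rested on 17 UMIs (WT PBS) and 8 UMIs (WT OVA), with intervals that overlapped those of B cells. In DJ-1 KO OVA against WT OVA, 3 of 12 were higher (Col6a2, Col14a1 and Fn1), where 13.6% of all genes were, and 2 lower (Col12a1 and Bgn), where 10.4% were. Intervals left out 1 for Col6a2 and Col14a1 on the higher side (10.5% of all genes) and for Col12a1 on the lower (6.04%). Col6a2 had 58, 146 and 135 UMIs, or 15.3, 28.4 and 64.0 CPM, against 0, 3.06 and 5.02 CPM in B cells. Its ratios were 1.86 (1.36 to 2.57) and 2.25 (1.77 to 2.87); the first was a log2 ratio of 0.25 when cells were thinned to 1000 UMIs. Type 2 Col6a2 was thus more than an order of magnitude below fibroblasts but in the same order over the libraries. Col12a1, a collagen that binds fibrils, had 21.6, 20.1 and 7.59 CPM, a DJ-1 KO OVA over WT OVA ratio of 0.38 (0.21 to 0.64). Col14a1 rested on 7 UMIs in WT OVA and 27 in DJ-1 KO OVA, or 1.36 and 12.8 CPM.

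The type 2 cells fell into different clusters in different libraries, so Col6a2 was also taken within each cluster. Cluster 5 held 285, 670 and 60 cells, and cluster 12, which had far more of the secreted protein gene Retnla, held 76 cells from WT OVA and 191 from DJ-1 KO OVA. In cluster 5 Col6a2 had 15.1, 28.1 and 74.3 CPM, with DJ-1 KO OVA 2.65-fold above WT OVA (1.69 to 4.01). In cluster 12 it had 31.0 and 61.8 CPM, a ratio of 1.99 (1.23 to 3.39). Col6a2 was thus higher in DJ-1 KO OVA within both clusters. Goblet cell markers summed to 29.8, 112 and 1057 CPM over all type 2 cells.

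Goblet and club cells of the airway showed little of the 40 genes beyond fibronectin. In goblet cells (3, 36 and 66 cells), the mucus-making cells, Fn1 had 8, 148 and 460 UMIs, or 52.6, 186 and 276 CPM, and it was the 1 gene above the B cell level in all 3 libraries. Club cells (40, 58 and 7) had 15.2, 69.5 and 34.8 CPM of Fn1, and B cells 4.96, 5.35 and 12.6 CPM. Alveolar macrophages had 779, 1695 and 2303 CPM of Fn1, and their markers summed to 13.2, 50.1 and 151 CPM in goblet cells. Whether macrophage RNA supplied the goblet cell UMIs was not tested. Neuroendocrine cells (11, 13 and 18), the sensory cells of the airway, spent 0.359%, 0.0851% and 0.1002% of their UMIs on the 40 genes, near type 2 cells in the OVA libraries. They had 474, 119 and 91.5 CPM of Col4a3. Their cluster scored 6.60 (log2) for neuroendocrine markers and, second, 3.71 for alveolar type 1 markers. Ager, Spock2, Clic5 and Igfbp2 of the type 1 list were among its leading genes. These levels may thus not be of neuroendocrine cells alone, and the part of type 1 cells was not tested. Sparc led the neuroendocrine class, and a single cell of each library held 54.7%, 70.7% and 57.8% of its UMIs. Ciliated cells (7, 15 and 28) had 0.138%, 0.0102% and 0.0247%, with 13 genes above the B cell level in WT PBS and 1 in each OVA library.

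Endothelial cells were few, so values are given without calls. Eln had 647, 313.5 and 459 CPM, Col4a1 475, 209 and 286 CPM, Sparc 275, 237 and 259.5 CPM, Bgn 248, 309.5 and 206 CPM, and Fbln5 227, 342 and 219.6 CPM. Vascular endothelial cells (8, 23 and 15) and lymphatic endothelial cells (14, 31 and 21) differed in Postn. All endothelial Postn UMIs, 24, 22 and 45, were in lymphatic cells, at 319.8, 254 and 507 CPM. Lymphatic Fn1 had 12, 72 and 173 UMIs, or 159.9, 833 and 1950 CPM, with 72.2% of the WT OVA UMIs in 1 cell. Alveolar macrophage markers in lymphatic cells summed to 333, 636 and 17010 CPM, and plasma cell markers in vascular cells to 185, 222 and 12790 CPM. Both sums were thus highest in DJ-1 KO OVA, and their part in these levels was not tested.

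A wider list of 82 genes that process matrix, build it or sense it gives the setting of the 40. Over all fibroblasts, WT OVA had 12 of 71 past 1.5-fold above WT PBS and 5 below, and DJ-1 KO OVA had 7 of 68 above WT OVA and 11 below, with median log2 ratios of 0.01 and -0.02; of all genes, 7.94% and 10.2% were past the threshold in the first comparison and 14.0% and 8.97% in the second. Sdc4, a membrane proteoglycan, had 705 CPM (WT PBS) and 1417 CPM (WT OVA), and Cd44, the hyaluronan receptor, 111 and 223 CPM. Lama4, a laminin chain, had 271 and 163 CPM, and Pcolce, which speeds the trimming of procollagen, 461 and 295 CPM. Ltbp2, a protein of elastic microfibrils, was high in WT OVA in both comparisons, with 45.8, 96.4 and 45.7 CPM in the 3 libraries.

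Between DJ-1 KO OVA and WT OVA, 4 of 19 collagen processing genes were past 1.5-fold higher and 1 lower, with a median log2 ratio of 0.25. Of all genes, 14.0% were higher and 8.97% lower. With so few genes a role, the role counts here say little beyond the genes named. Serpinh1, which encodes the collagen chaperone HSP47, had 1080 CPM in WT PBS, 1006 CPM in WT OVA and 2030 CPM in DJ-1 KO OVA, a DJ-1 KO OVA over WT OVA ratio of 2.02 (1.90 to 2.14). It stood above WT OVA in alveolar fibroblasts (842 and 1739 CPM) and in adventitial fibroblasts (1099 and 2272 CPM). P4hb, a subunit of the collagen prolyl hydroxylase, had 277 and 464 CPM over all fibroblasts, and Efemp2, a fibulin of the elastic fibre, 110.4 and 217 CPM. Of other matrix proteins, 2 of 35 were higher and 8 lower. Fmod, the small proteoglycan fibromodulin, had 55.5 CPM in WT OVA and 13.1 CPM in DJ-1 KO OVA, and Pcolce2 had 1730 CPM in WT PBS, 1180 in WT OVA and 673 in DJ-1 KO OVA. Of matrix receptors, 1 was higher and 2 lower of 14.

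The same wider genes were then taken by fibroblast class. In alveolar fibroblasts Cd44 had 101, 224 and 387 CPM, Sdc4 797 CPM (WT PBS) and 1483 CPM (WT OVA), and Ltbp2 32.0, 76.0 and 29.0 CPM. Pcolce2 stepped down there, with 2152, 1343 and 737 CPM, and Fmod had 98.0, 66.4 and 8.28 CPM. In adventitial fibroblasts Sdc4 had 531 CPM (WT PBS) and 1167 CPM (WT OVA), Thbs1, the matricellular protein thrombospondin 1, 1042 and 1694 CPM, and Plod2, a lysyl hydroxylase of collagen, 45.6 and 99.5 CPM. Itga8, the integrin chain that binds nephronectin, had 28.1, 51.3 and 126 CPM, and Crtap, of the prolyl 3-hydroxylase complex, 145 CPM in WT OVA and 286 CPM in DJ-1 KO OVA. Tgfbi had 239 and 104 CPM in the same libraries, and Pcolce2 1531, 1208 and 675 CPM in all 3. Lama4 and Pcolce stood below their WT PBS levels in WT OVA in both classes, with Lama4 at 300.5 and 169 CPM in alveolar and 208 and 106 CPM in adventitial fibroblasts.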

How the data were processed

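UMI counts per gene and cell were deposited by the authors as 1 matrix a library, and they are raw whole-number counts per the file headers (software version 3.1.0). Cell Ranger, STAR and build mm10 are named per the submitters' processing notes; other settings are not given in the sources used here, and no barcode had under 500 UMIs. The 40 genes and all lists were chosen with earlier results of these data known.

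A cell was kept with 200 or more genes and no more than 20% mitochondrial UMIs. Scrublet (scanpy 1.11.5, Python 3.11.15) was run per library with an expected rate of 0.06, and the lower-UMI cell of each barcode shared by WT PBS and DJ-1 KO OVA was left out. Counts scaled to 10000 and log-transformed gave 2000 variable genes (without the 40 genes and the wider list), 30 components, 15 neighbours and Leiden clusters at resolution 1 (leidenalg 0.10.2); mesenchymal and epithelial compartments were clustered again. A name needed a marker score of at least 1 (log2) and 3 markers each in 10% of cells. The margin of 1 between fibroblast classes, the removal of 47, 63 and 77 cells of sub-clusters with a leukocyte score of at least 2, and the epithelial re-clustering were chosen after seeing the data.

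Counts were summed per library and class. Intervals are exact Poisson, binomial or Clopper-Pearson (SciPy 1.17.1), at 95%. Ratios were called with at least 20 UMIs and, per library, 50 cells. The code was tested on simulated data. Of 83 symbols of the wider list 82 were found. Named members are those past 1.5-fold with an interval that leaves out 1 (at most 12 a class and comparison) plus the 5 of highest CPM in a class, and of the wider list the 3 furthest a direction.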

Additional observations from a re-analysis of the deposited data

How the results depend on the processing

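No paired analysis was possible because each group has 1 library. Of 17 alternatives, 5 were added after seeing the data (margin 0 between fibroblast classes, mixed sub-clusters kept, fibroblasts assigned cell by cell, without sub-clusters over 70% from 1 library, without the cell of most UMIs). Of 168 matrix shares 68 moved beyond their counting intervals; 79 of 946 log2 ratios of named genes moved past counting error and 21 reversed. Counts below are genes past 1.5-fold, "first" is WT OVA over WT PBS, "second" DJ-1 KO OVA over WT OVA, and Npnt, Col13a1, Spon1 are adventitial log2 ratios of the second (1.55, 1.48 and 0.79 as reported). The cause was not tested unless the setting itself removes cells or genes. Keeping all cells of shared barcodes gave an adventitial second median of 0.082 (0.26 reported); leaving out both gave 8 higher of all fibroblasts second (5), 0 lower alveolar second (1), and in type 2 cells 0 lower first (1; Fbln5 0.005 for -1.52) and 1 lower second (2). At least 10 UMIs gave alveolar first 2 higher (1), adventitial second 2 lower (1), type 2 first 8 higher (3) and 2 lower (1); at least 50 gave adventitial second 0 lower, type 2 first 1 higher and 0 lower, and second 1 higher (3) and 1 lower (2). At most 10% mitochondrial UMIs gave alveolar first 2 higher, alveolar second 0 lower, adventitial second 6 lower, Npnt -1.38, Col13a1 -1.56, Spon1 -1.62. Cells weighted alike gave 1 lower in all and in adventitial fibroblasts first (3 each; Col8a1 0.57 and 0.13 for -0.81 and -0.87), alveolar first 2 higher, adventitial second 2 lower, type 2 first 2 lower and second 1 lower. Keeping doublets gave adventitial second 4 higher (9) and 2 lower, Npnt -0.57, Col13a1 -0.45, Spon1 -1.01. Cells were clustered and named again there, so class membership changed too, with 54 adventitial cells of DJ-1 KO OVA in place of 100. The same holds at most 10% mitochondrial UMIs (63 cells), for variable genes from all genes (67) and with all cells of shared barcodes kept (76). Thinning to 1000 UMIs gave all fibroblasts first 9 higher (4) and 1 lower (Col8a1 1.22), alveolar first 2 higher and 5 lower (2), adventitial first 10 higher (6; Col8a1 2.06), adventitial second 2 lower, mesothelial second 5 higher (2), type 2 first 0 lower. Margin 0 gave adventitial second 5 higher, Col13a1 -0.47, Spon1 -0.042; cell by cell, alveolar first 4 higher, alveolar second 4 lower, adventitial second 3 lower, Npnt -0.055, Col13a1 -0.63, Spon1 -0.078. Median-of-ratios scaling, which lowered second log2 ratios by 0.10 in alveolar and 0.07 in adventitial fibroblasts, gave alveolar second 3 higher (7) and a median of 0.15 (0.25), adventitial second 2 lower. Genes above B cells alone gave type 2 first 1 higher and 0 lower, second 1 higher and 1 lower; mixed sub-clusters kept, type 2 second 6 higher and 1 lower. Variable genes from all genes gave an adventitial first median of 0.13 (0.04) and second 4 higher, 2 lower and a median of 0.10. Without sub-clusters over 70% from 1 library, adventitial second had 5 lower, Npnt -0.56, Col13a1 -0.71, Spon1 -2.42. Without the cell of most UMIs, Col8a1 first was 0.20 in all and 0.30 in adventitial fibroblasts, alveolar and adventitial second had 2 lower each, mesothelial second 1 higher, type 2 first 2 lower. Depth was lower in both OVA libraries, with fibroblast medians of 6674.5, 4307 and 3981 UMIs a cell, and a gene under 20 UMIs over both libraries was given no call.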
